A study of Mus musculus with 26 samples.

Results

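The transcripts described here are 33 genes that mark cells other than T cells: 7 genes of class II antigen presentation, 6 of B cells, 10 of plasmacytoid dendritic cells, 8 of myeloid cells and 2 of red cell precursors. They were chosen by symbol as known lineage markers out of 24411 genes in the count table, with earlier results of these data known. They were read in 26 poly(A) RNA-seq libraries of CD4+ T cells, sorted fresh from the spleen and lymph nodes of mice of strain C57BL6/J. The libraries form 13 groups of 2. Regulatory T cells (Treg) were found by a reporter placed behind Foxp3, the transcription factor that defines them, so a gate selects on CD4 and on the reporter and does not itself score any of the 33 genes.

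From Foxp3-IRES-hCD2 mice came WT Treg (CD4+hCD2+) and the hCD2- conventional T cells named Tconv, and from Batf-/- mice with the same reporter came BATFKO Treg (CD4+hCD2+). The Tconv libraries carry Tconv in their title and Treg in their cell type label, with an hCD2- gate, and were grouped by title. WT Treg YFP, gated as CD4+YFP+hCD2-, came from Foxp3-IRES-YFPCre/Foxp3-IRES-hCD2 mice, and the mice of BATFcKO Treg YFP carried Batf flox/flox in addition, so that Cre driven by Foxp3 deletes Batf in cells that express Foxp3. Foxp3R397W Treg (Foxp3R397W-IRES-hCD2/Foxp3-IRES-GFP) and Foxp3KO Treg (Foxp3fs101-IRES-hCD2/Foxp3-IRES-GFP) were CD4+hCD2+GFP- cells, each set against a control from Foxp3WT-IRES-hCD2/Foxp3-IRES-GFP mice in the same gate. These mutant mice also hold cells with an intact, GFP-tagged Foxp3 allele. From Foxp3-IRES-hCD2 mice, cTreg (hCD2+CCR7hiCD62LhiCD44lo) and eTreg (hCD2+CCR7loCD62Llo) are the resting and the activated Treg gate, and Tnaive (hCD2-CCR7hiCD62LhiCD44lo) and Teff (hCD2-CCR7loCD62Llo) are the same gates among hCD2- cells.

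Class II molecules display peptides to CD4+ T cells. Their alpha and beta chains (H2-Aa, H2-Ab1, H2-Eb1) pair with the invariant chain Cd74, peptides are loaded with the help of H2-DM (H2-DMa, H2-DMb1), and Ciita is the coactivator that switches the genes on in dendritic cells, B cells and macrophages. Plasmacytoid dendritic cells are interferon producers of blood and lymphoid organs that depend on Tcf4, and in the mouse they can carry low CD4 on their surface. B cells read antigen through a receptor whose signalling chains are Cd79a and Cd79b.

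Library totals ran from 5615929 to 34613707 counts, and levels are given as TMM-scaled CPM (counts scaled to a common library size). A count of 0 in a library allows a level of up to 0.096 to 0.531 CPM, depending on its depth, a limit that covers counting error only, since amplified reads are not independent molecules. Foxp3 stood at 0.283 CPM in Teff, 2.77 in Tnaive and 3.32 in Tconv, against 110.9 to 772 in the 10 Treg groups, as group means of 2 libraries. Batf stood at 7.02 CPM in BATFKO Treg and 17.7 in BATFcKO Treg YFP, against 64.5 and 63.2 in their controls. The summed level of 12 T cell identity genes (Cd3e, Cd4, Lck and others) was 8580 and 9081 CPM in the Teff libraries and 6801 to 8700 CPM in the other 24, so each gate held the defining markers of T cells. In sorted bulk samples, fewer cells of a type and less RNA per cell cannot be told apart. Nothing in the labels says that the 2 libraries of a group are separate animals. The p-values thus measure a spread between libraries that may be technical. For each gene that spread is estimated over all 13 groups, so it need not match the spread between the 2 Teff libraries. The share of all genes whose groups do not overlap was not taken, so a lack of overlap is given as description only.

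Of the 33 members, 28 passed the filter on low counts and were tested, and Ms4a1, Pax5, Blnk, Hbb-bs and Hba-a1 did not. Only 15 of the 28 would have passed on the 24 libraries other than Teff. The other 13 (Bcl11a, Cd209d, Clec10a, Cox6a2, Fcer1g, H2-DMb1, Itgax, Klk1, Pld4, Rnase6, Siglech, Spib and Tyrobp) entered through Teff, so counts of members higher in Teff describe these genes and are no support in themselves. The map of all members by library shows one bright pair of columns, Teff, across 3 of the 5 classes, and a few B cell and class II rows that vary elsewhere.

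**Figure D1:**
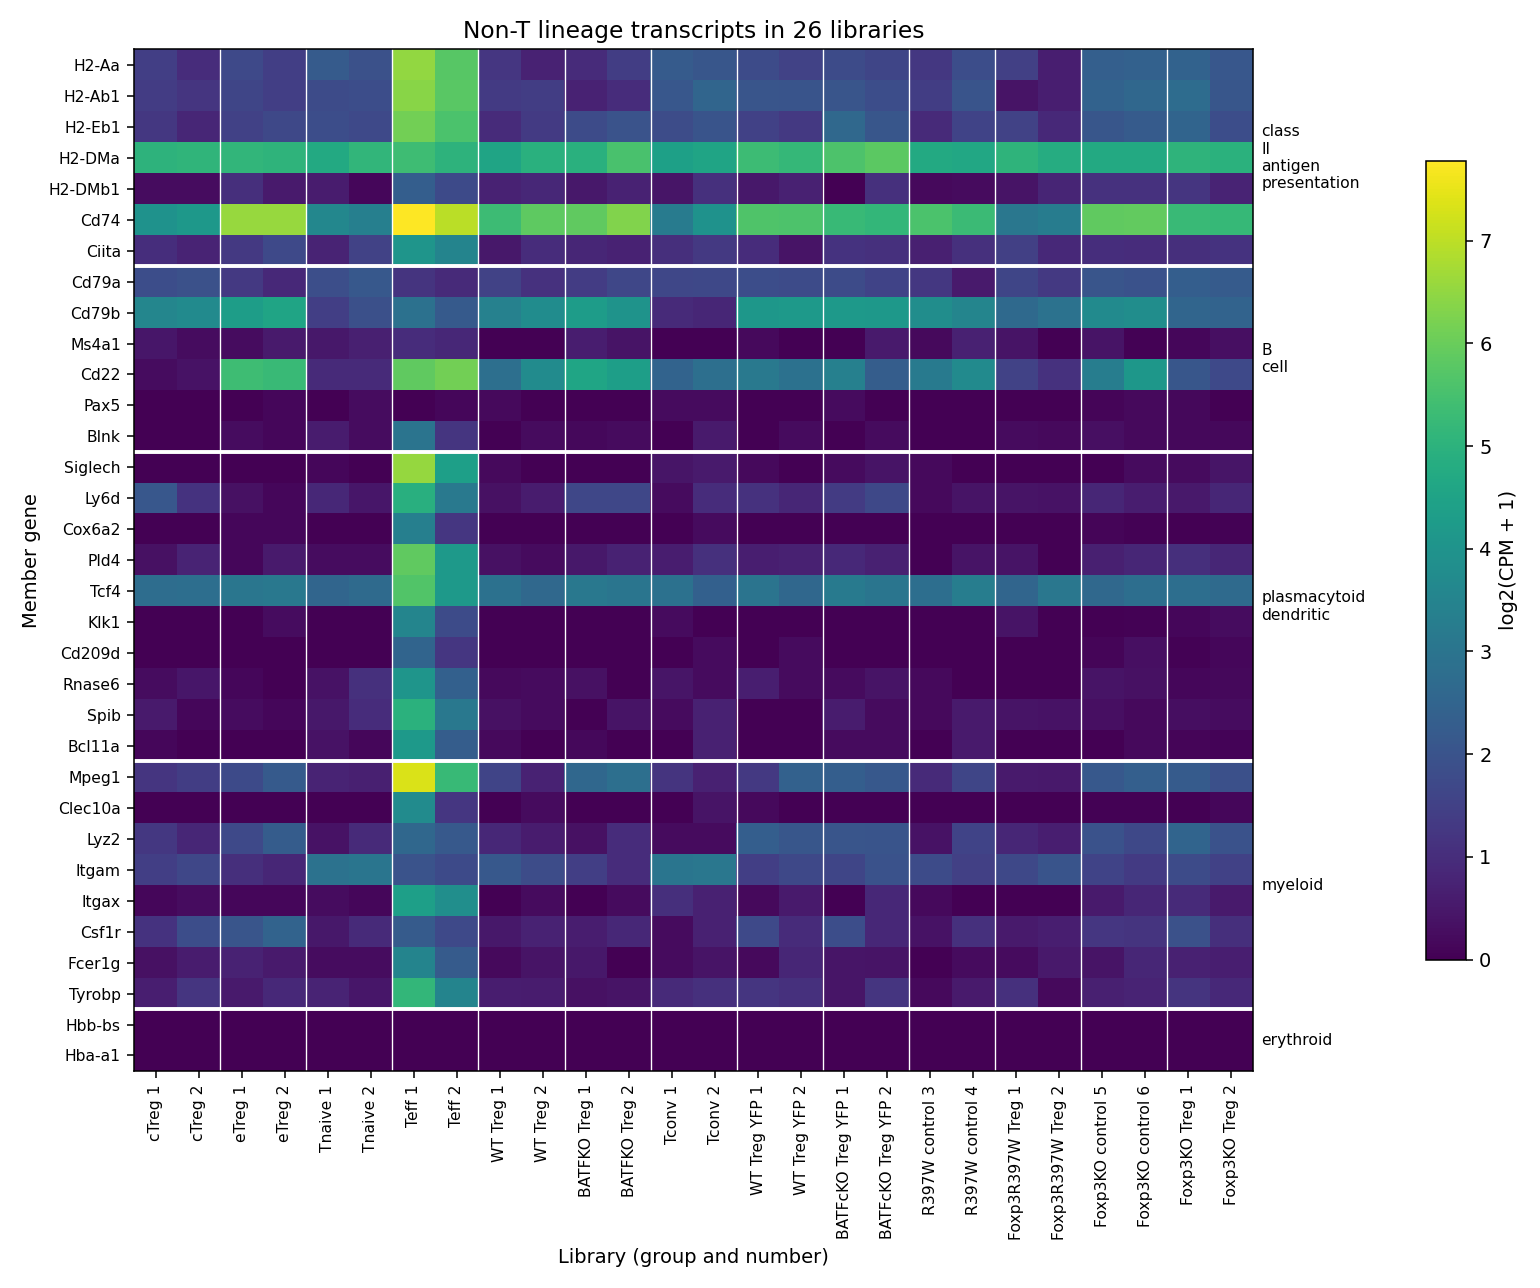
Level of each of the 33 members (rows, by class) in each of the 26 libraries (columns, by group), as log2(CPM + 1) on a linear colour scale. The Teff columns stand out in the class II, plasmacytoid dendritic and myeloid rows, Cd22, Cd79b and Cd74 also vary among Treg gates, and the 2 globin rows are at 0 throughout.

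In Teff against Tnaive, the activated against the resting hCD2- gate, 25 of the 28 tested members were higher and 2 lower at an adjusted p below 0.05 (edgeR quasi-likelihood test, Benjamini-Hochberg over all 12227 tested genes). Over all tested genes 21.2% were higher and 14.0% lower. The median log2 difference was 4.74 over the members (4.64 with genes that had no read in a group at their bound) and 0.01 over all tested genes. With Teff 1 left out, Teff held 1 library, and the log2 difference was 0.68 for Cd79b and 1.78 for Csf1r.

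Of the 7 class II members, 6 were higher in Teff. H2-Aa, the alpha chain of I-A, stood at 90.1 and 53.2 CPM in the Teff libraries and at 3.67 and 2.80 in Tnaive, and its highest level in the other 24 libraries was 4.50 (log2 difference 4.47 ± 0.32 SE, edgeR adjusted p = 2.4e-09). H2-Ab1, its beta chain partner, stood at 83.6 and 53.6 CPM against 2.44 and 2.6 (4.76 ± 0.29, edgeR adjusted p = 3.9e-10). H2-Eb1, the beta chain of I-E, stood at 69.2 and 46.5 CPM against 2.55 and 2.30 (4.57 ± 0.33, edgeR adjusted p = 3.1e-09). Both Teff libraries thus lay above every other library for all 3 chains, with no overlap of groups.

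The invariant chain Cd74 reached 218 and 124.6 CPM in Teff, against 11 and 9.19 in Tnaive (4.08 ± 0.26, edgeR adjusted p = 6.7e-10). Ciita, the master coactivator, was lower in level, with 15.7 and 10.4 CPM in Teff against 0.713 and 1.90 in Tnaive (3.31 ± 0.39, edgeR adjusted p = 1.9e-06), and no other library exceeded 2.31. H2-DMb1 stood at 4.01 and 2.37 CPM against 0.509 and 0.0999 (3.34 ± 0.68, edgeR adjusted p = 0.00067), a value that is uncertain because H2-DMb2 is a near-identical copy. H2-DMa, which encodes the partner chain of the loading complex, was the member of the class that was not called: its 40.2 and 31.9 CPM in Teff overlapped the 25.4 and 33.5 of Tnaive (0.29 ± 0.18, edgeR adjusted p = 0.23), and it lay between 20.5 and 55.0 CPM in all 26 libraries.

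Set on 1 scale by dividing by each gene's exon length, Cd74 led the class in Teff 1 with 130 CPM per kb, followed by H2-Eb1 with 35.6, H2-Ab1 with 32.6, H2-Aa with 23.7 and H2-DMa with 11.6, whereas Ciita stood at 1.65 and H2-DMb1 at 2.38. In eTreg the order differed only in H2-DMa, which lay above H2-Eb1, H2-Ab1 and H2-Aa. Cd74 stood at 56.3 CPM per kb, H2-DMa at 9.53, H2-Eb1 at 1.04, H2-Ab1 at 0.746 and H2-Aa at 0.53. H2-DMb1 at 0.456 and Ciita at 0.196 were lowest. The chains that hold the peptide thus lay far below the invariant chain in eTreg, and above H2-DMb1 and Ciita.

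Promoter sequence is shown for this class because its members moved together in Teff with 1 exception, and because class II promoters are known for a conserved X box and a reversed CCAAT (Y) box at a fixed distance. The RefSeq promoter table (GRCm38.p6, 250 bases before to 50 after each start) had an entry for 22 of the 33 members, 2 of them with several windows, and none for H2-Ab1 or Ciita. Each line gives a stretch of 75 bases that ends 31 bases before the start, 5′ to 3′ on the gene's strand, all on chromosome 17, with GATTGG and GCAAC in capitals. H2-Oa and H2-Ob, which encode the inhibitor of H2-DM and are not members, are added for comparison.
H2-Aa (chr17:34287854-34287928, minus strand): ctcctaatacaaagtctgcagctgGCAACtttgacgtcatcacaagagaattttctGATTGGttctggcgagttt
H2-Eb1 (chr17:34305762-34305836, plus strand): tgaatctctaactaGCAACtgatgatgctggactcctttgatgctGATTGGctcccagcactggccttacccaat
H2-DMb1 (chr17:34153086-34153160, plus strand): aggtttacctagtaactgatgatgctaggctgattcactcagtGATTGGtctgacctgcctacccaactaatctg
H2-DMa, first window (chr17:34122727-34122801, plus strand): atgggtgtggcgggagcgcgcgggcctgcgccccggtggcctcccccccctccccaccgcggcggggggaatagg
H2-Oa (chr17:34092274-34092348, plus strand): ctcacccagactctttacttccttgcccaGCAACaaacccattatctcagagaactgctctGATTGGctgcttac
H2-Ob (chr17:34238800-34238874, plus strand): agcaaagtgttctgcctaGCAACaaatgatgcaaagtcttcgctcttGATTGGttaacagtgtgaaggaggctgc

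The start of GCAAC lay 32 bases before the start of GATTGG in H2-Aa and H2-Oa, 31 in H2-Eb1 and 29 in H2-Ob. H2-DMb1 held GATTGG without an exact GCAAC in this stretch. It held GTAAC instead, at the same spacing from GATTGG as GCAAC in H2-Aa, and only exact letters were searched. Both H2-DMa stretches held neither GATTGG nor GCAAC, although the second 300-base window of H2-DMa held GATTGG elsewhere. Of 32851 promoter windows of 300 bases, 16.1% held GATTGG on either strand, and 0.213% held GCAAC followed by GATTGG with 26 to 36 bases between their starts, a spacing that was chosen from these sequences. The letters are a description and not a site. Among these genes they did not sort with the levels: H2-Ob, with both motifs, fell from 73.4 and 67.2 CPM in Tnaive to 20.5 and 21.4 in Teff (-1.74 ± 0.16, edgeR adjusted p = 7.6e-08), and H2-Oa rose from 3.87 and 4.19 to 11.04 and 9.21 (1.32 ± 0.23, edgeR adjusted p = 0.00012). Of 14 tested genes of the wider class II pathway 8 were higher and 3 lower in Teff, with a median log2 difference of 0.50.

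All 10 plasmacytoid dendritic members were higher in Teff than in Tnaive. Siglech, a sialic acid-binding lectin of these cells, stood at 92.3 and 19.98 CPM in Teff against 0.102 and 0 in Tnaive, that is 1164 reads against 1, a ratio of 1089 with a 95% counting interval of 195 to 43060 (edgeR adjusted p = 2.5e-06). Its highest level among the other 24 libraries was 0.482, in Tconv 2. Tcf4, the E protein that specifies the lineage, was also the one with a level in every T cell gate: 50.03 and 17.2 CPM in Teff against 4.79 and 5.39 in Tnaive (2.72 ± 0.36, edgeR adjusted p = 7.7e-06), and 4.18 to 8.83 in the other libraries. Of the remaining 8 members, Ly6d reached 3.29 CPM outside Teff, in cTreg 1, and the other 7 at most 1.12.

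Pld4, a lysosomal exonuclease, stood at 58.4 and 17.5 CPM in Teff against 0.204 and 0.200 in Tnaive (7.48 ± 0.68, edgeR adjusted p = 5.8e-08). The Ets factor Spib stood at 30.1 and 7.66 CPM against 0.407 and 0.999 (4.72 ± 0.63, edgeR adjusted p = 1e-05), and the zinc finger factor Bcl11a at 17.1 and 3.92 CPM against 0.306 and 0.0999 (5.62 ± 0.91, edgeR adjusted p = 0.00014). Ly6d, a small membrane-anchored surface protein, stood at 29.0 and 7.76 CPM against 0.815 and 0.400 (4.90 ± 0.63, edgeR adjusted p = 4.8e-06). Within each of these genes the first Teff library was the higher one, and the second still lay above all 24 other libraries.

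Rnase6, a ribonuclease, stood at 15.7 and 4.20 CPM in Teff against 0.306 and 1.10 in Tnaive (3.79 ± 0.61, edgeR adjusted p = 8.3e-05). No read was seen in Tnaive for 3 members, so their differences are lower bounds, set by 3 counts for both Tnaive libraries together: Cox6a2 was at least 34.3-fold higher, the kallikrein Klk1 at least 42.1-fold and the lectin Cd209d at least 19.7-fold. Klk1 and Cd209d belong to families of close copies between which reads can be shared, and their values are uncertain for that reason. The median log2 difference of the class was 6.55 as fitted and 5 with these 3 at their bound. Without Teff 1 all 10 stayed called, with smaller differences: 1.75 for Tcf4, 6.36 for Pld4, 3.42 for Spib, 4.21 for Bcl11a, 3.66 for Ly6d and 2.56 for Rnase6 on the log2 scale.

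Other genes of the plasmacytoid dendritic program did not move as one. Of 17 tested, 9 were higher, 2 lower and 6 not called in Teff against Tnaive, with a median log2 difference of 1.28. Runx2, a regulator of their exit from bone marrow, stood at 96.1 and 54.2 CPM against 0.509 and 0.999 (6.61 ± 0.34, edgeR adjusted p = 3.2e-11), and it also stood at 53.4 and 58.0 in eTreg, where Siglech had no read. The progranulin gene Grn rose by 2.83 ± 0.27 (edgeR adjusted p = 1.2e-07), and Atp1b1, a sodium pump subunit, fell by 2.38 ± 0.22 on the log2 scale (edgeR adjusted p = 7.5e-08).

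The myeloid members split. Mpeg1, which encodes the pore-forming perforin-2 of phagocytes, stood at 160.8 and 37.0 CPM in Teff against 0.713 and 0.599 in Tnaive (7.21 ± 0.67, edgeR adjusted p = 7.7e-08). The signalling adaptor Tyrobp stood at 34.5 and 10.5 CPM against 0.713 and 0.400 (5.31 ± 0.60, edgeR adjusted p = 9.8e-07), and Fcer1g, the shared Fc receptor chain, at 10.4 and 3.74 CPM against 0.204 and 0.200 (5.05 ± 0.69, edgeR adjusted p = 1.1e-05). Both adaptors are also used by natural killer cells. Itgax, the dendritic cell integrin CD11c, stood at 20.1 and 13.2 CPM in Teff, with 351 reads against 3 in Tnaive, a ratio of 109.5 with a 95% counting interval of 37.2 to 533 (edgeR adjusted p = 2e-07).

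Clec10a, a lectin of dendritic cells and macrophages, stood at 12.5 and 1.37 CPM in Teff with no read in Tnaive, at least 44.6-fold higher (edgeR adjusted p = 0.0021). Lyz2, the lysozyme of macrophages and granulocytes, was modest at 5.08 and 3.47 CPM against 0.306 and 0.899 (2.80 ± 0.56, edgeR adjusted p = 0.00052), and it reached 4.70 in Foxp3KO Treg 1. Csf1r, the growth factor receptor of macrophages, stood at 3.71 and 2.28 CPM against 0.407 and 0.899 (2.17 ± 0.64, edgeR adjusted p = 0.012), below the 4.61 of eTreg 2, and was not called without Teff 1 (1.78) or without Tnaive 1. Without Teff 1 the difference was 5.80 for Mpeg1, 4.22 for Tyrobp and 4.14 for Fcer1g.

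Itgam, the integrin CD11b, went the other way. It stood at 6.62 and 7.19 CPM in Tnaive and 7.08 and 7.55 in Tconv, and between 0.768 and 3.40 in the other 22 libraries, Teff included at 2.93 and 2.37 (-1.38 ± 0.27 for Teff against Tnaive, edgeR adjusted p = 0.0004). Among markers outside the members, the granulocyte and mast cell list summed to 2.44 and 2.37 CPM over 13 genes in Teff, within the 0.384 to 3.91 of the other libraries. Monocyte and macrophage genes summed to 1681 and 1495 CPM over 20 genes in Teff, above the 782 to 1332 of the other libraries, and 11 of 16 tested were higher than in Tnaive and 0 lower. Among these, the monocyte surface gene Ly6c2 stood at 43.5 and 19.1 CPM in Teff and at most at 5.997 elsewhere, and the chemokine receptor gene Ccr2 at 140 and 88.6 CPM in Teff and at 119 and 114.5 in eTreg. The macrophage marker Adgre1 stood at 2.44 and 2.19 CPM in Teff and at most at 1.15 elsewhere. Conventional dendritic genes summed to 126.8 and 68.3 CPM in Teff, and 8 of 10 tested were higher than in Tnaive. That sum reached 404 in eTreg 1, where 395 CPM of it was Itgae, an integrin that T cells also carry. Flt3, the dendritic cell growth factor receptor, stood at 15.1 and 5.93 CPM in Teff and at most at 0.976 elsewhere.

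The B cell members did not form a group. Ms4a1 (CD20) stood at 0.977 and 0.821 CPM in Teff and at most at 0.643 in the other 24 libraries. Pax5, the factor that holds B cell identity, did not exceed 0.200 CPM in any library. Against that, Cd22, an inhibitory lectin of the B cell receptor, stood at 57.4 and 68.5 CPM in Teff against 0.917 and 0.899 in Tnaive (6.10 ± 0.45, edgeR adjusted p = 3.5e-09).

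Cd79b stood at 6.55 and 3.56 CPM in Teff against 1.73 and 2.70 in Tnaive (1.18 ± 0.29, edgeR adjusted p = 0.003), and this call was lost without Teff 1 (0.68) and without Tnaive 1. Cd79a, its partner in the receptor, was lower, with 1.27 and 0.912 CPM against 2.65 and 3.40 (-1.47 ± 0.34, edgeR adjusted p = 0.0021). Blnk, an adaptor below the B cell receptor, was not tested and had reads mainly in Teff 1, with 6.94 CPM there, 1.28 in Teff 2 and at most 0.509 elsewhere. In Teff, Cd22 was thus above all 24 other libraries and Cd79b below their median of 12.2 CPM, while Ms4a1, at 10 and 9 reads, had its highest levels.

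Summed by class, the plasmacytoid dendritic members gave 317 and 83.4 CPM in Teff against 6.07 to 11.7 (median 8.29) in the other 24 libraries. The myeloid members gave 250 and 74.0 CPM against 4.28 to 16.4 (median 10.2), and the class II members 521 and 323 CPM against 39.2 to 137 (median 82.2). For B cell members the sums were 73.1 and 75.2 CPM against 6.21 to 61.6 (median 23.0), with the highest of the others in eTreg 1. In each of these classes both Teff libraries thus lay above all 24 others, with the B cell sums closest to the highest of the others (61.6 CPM in eTreg 1). The sums of the first 3 classes were higher in Teff 1 than in Teff 2, whereas the B cell sums were close. The B cell sum was made up mostly of Cd22 in Teff and eTreg and of Cd79b in cTreg, where Cd22 stood at 0.188 and 0.297 CPM.

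The Teff libraries differed from each other by amounts that varied among the members. The ratio of Teff 1 to Teff 2 was 2.92 to 6.78 for the 10 plasmacytoid dendritic members (median 3.84). It was 1.49 to 1.75 for the 6 class II members higher in Teff (median 1.62). The wider plasmacytoid dendritic list was less uniform, at 0.915 to 4.94 over 17 genes (median 2.0), with 6 of them at 2.5 or more, and conventional dendritic genes had 3 of 9 at 2.5 or more (median 1.8). Over 11324 tested genes with at least 10 reads in each Teff library, the median ratio was 1.01, 5% lay below 0.714 and 5% above 1.44, and 0.804% reached 2.5. The 12 T cell identity genes lay between 0.831 and 1.11, so the split did not extend to them.

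The counting intervals of 2 plasmacytoid dendritic and 2 class II genes with many reads did not overlap: 4.62 (95% interval 3.99 to 5.38) for Siglech and 3.34 (2.83 to 3.95) for Pld4, against 1.69 (1.53 to 1.88) for H2-Aa and 1.75 (1.64 to 1.87) for Cd74. Not every pair was separate. The interval of H2-DMb1 (1.01 to 2.88, on 41 and 26 reads) overlapped those of Pld4, Tcf4 (2.46 to 3.47), Klk1, Rnase6 and Cd209d (1.89 to 6.59). That of Cd209d also overlapped Ciita (1.18 to 1.94). The myeloid members fell on both sides. Clec10a had a ratio of 9.14 (5.34 to 16.8), Mpeg1 4.34 (3.89 to 4.85), Tyrobp 3.29 (2.66 to 4.09) and Fcer1g 2.77 (1.91 to 4.07). Itgax had 1.52 (1.22 to 1.90), Lyz2 1.47 (0.946 to 2.29) and Csf1r 1.63 (0.957 to 2.81), beside the class II genes.

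Among B cell members, Blnk had a ratio of 5.43 (3.03 to 10.4), with the plasmacytoid dendritic genes, Cd79b 1.84 (1.22 to 2.80) and Cd22 0.837 (0.75 to 0.934). Cd22 was the only one of these 3 that was higher in Teff 2. With 2 libraries, these ratios have no replicate check, and the intervals cover counting error only. Whether the amounts of a plasmacytoid dendritic cell admixture differed between these libraries was not tested.

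**Figure D2:**
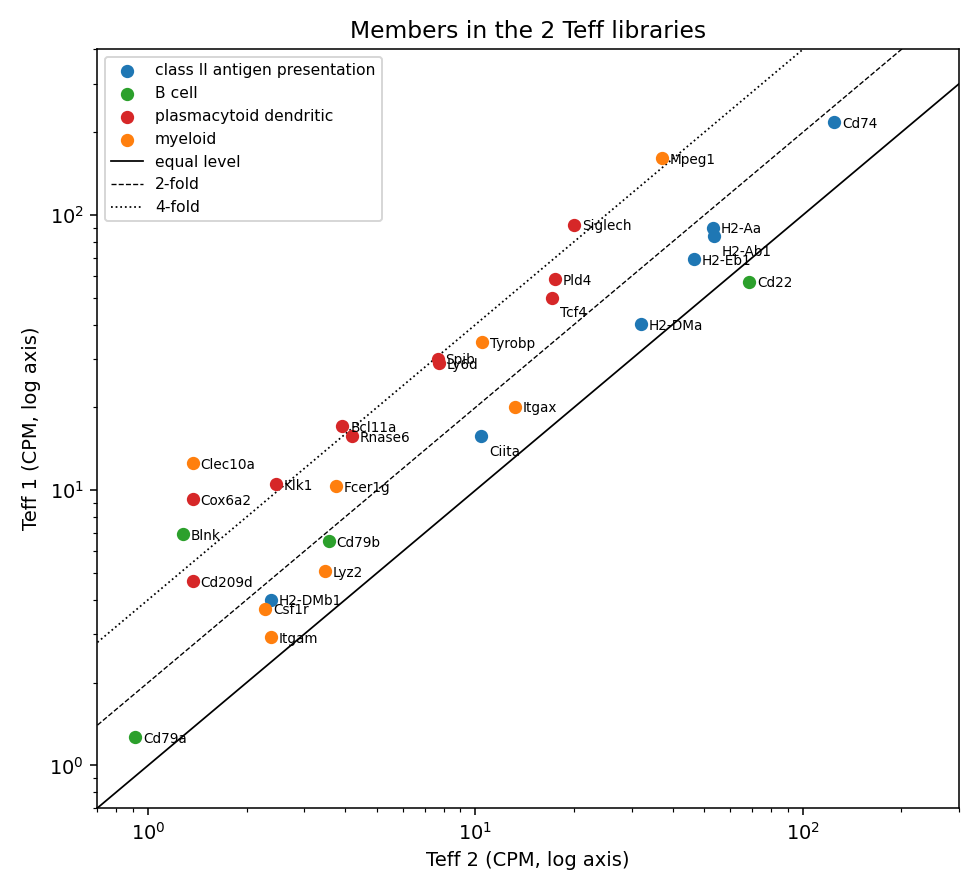
Level of each member with at least 10 reads in each Teff library, Teff 2 on the x axis and Teff 1 on the y axis. Levels are in CPM on log axes, coloured by class, with lines for equal level, 2-fold and 4-fold. Plasmacytoid dendritic members lie near the 4-fold line (2.92 to 6.78), class II members nearer to equality (1.26 for H2-DMa to 1.75 for Cd74), and Cd22 just below equality (0.837).

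In eTreg against cTreg, the same pair of gates among Foxp3-expressing cells, 4 members were higher and 3 lower. Over all tested genes 18.8% were higher and 12.3% lower, so the members' shares were close to the background. The median log2 difference was 0.36 over the members (0.01 with genes that had no read in a group at their bound) and 0.01 over all tested genes. Cd22 changed most, from 0.188 and 0.297 CPM in cTreg to 40.5 and 37.4 in eTreg (7.27 ± 0.55, edgeR adjusted p = 1.1e-08). Cd74 rose from 14.5 and 16.7 CPM to 95.01 and 94.1 (2.6 ± 0.25, edgeR adjusted p = 1.4e-07). The groups did not overlap for either gene.

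The class II chains did not accompany Cd74. H2-Aa stood at 2.29 and 1.73 CPM in eTreg and 1.69 and 0.991 in cTreg (0.57 ± 0.46, edgeR adjusted p = 0.39), and H2-Ab1 and H2-Eb1 also stayed between 1.73 and 2.21 CPM in eTreg. Cd79b rose from 10.8 and 12.2 CPM to 19.2 and 22.2 (0.85 ± 0.21, edgeR adjusted p = 0.0037), while Cd79a fell by 1.20 ± 0.34 on the log2 scale (edgeR adjusted p = 0.011). Lyz2 rose by 1.46 ± 0.51 (edgeR adjusted p = 0.037), from 1.41 and 0.793 CPM to 2.29 and 3.84. Ly6d fell from 3.29 and 1.19 CPM to 0.287 and 0.096 (-3.48 ± 0.91, edgeR adjusted p = 0.0061), and Itgam fell by 1.08 ± 0.36 (edgeR adjusted p = 0.027).

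No plasmacytoid dendritic member was higher in eTreg. Siglech and Cd209d had no read in any of the 4 libraries, and Bcl11a had none in eTreg. The count of 7 members fell to 2 without eTreg 2, when only Cd22 and Cd74 were called, and to 4 without cTreg 1 or cTreg 2. Of the wider class II pathway, 8 of 14 genes were higher and 1 lower, among them the costimulatory ligand Cd80 (3.12 ± 0.50, edgeR adjusted p = 6.9e-05) and H2-Oa (1.24 ± 0.20, edgeR adjusted p = 8.3e-05), with H2-Ob lower (-1.74 ± 0.16, edgeR adjusted p = 8.6e-08).

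Whether a member's change between the gates differed between hCD2- and hCD2+ cells was tested as a contrast of the same model. The change was greater among hCD2- cells for 12 of 28 members and smaller for none, with 3.85% and 1.57% of all tested genes called in those directions. Of these 12, Pld4, Rnase6, Itgax, Fcer1g and Tyrobp had passed the filter only through Teff, so the count is no support in itself. H2-Ab1 changed by 4.36 ± 0.53 more (edgeR adjusted p = 2.6e-05), H2-Aa by 3.89 ± 0.58 (edgeR adjusted p = 0.00024) and H2-Eb1 by 3.72 ± 0.61 (edgeR adjusted p = 0.00065) on the log2 scale. Cd74 changed by 1.49 ± 0.35 more (edgeR adjusted p = 0.013), a call lost without Teff 1, Tnaive 2 or cTreg 2. The estimates of the 3 chains lay above that of the invariant chain, a gap that was not tested.

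Cd22 and Cd79b were not shown to differ between the arms (Cd22 -1.17 ± 1.03, edgeR adjusted p = 0.81; Cd79b 0.33 ± 0.35, edgeR adjusted p = 0.89), and the SE of Cd22 leaves room for a difference of several fold. Among plasmacytoid dendritic members, Ly6d, Pld4, Tcf4 and Rnase6 were called, and among myeloid members Mpeg1, Itgax, Fcer1g and Tyrobp. Siglech, Cox6a2, Klk1, Cd209d, Bcl11a and Clec10a had a group with no read, and this contrast gave no usable estimate for them. Without cTreg 2 the count of members was 6, and without any other library 8 to 14.

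Set directly against each other, eTreg was lower than Teff for 22 members and higher for 1, where 7.26% of all tested genes were lower and 8.21% higher. This comparison shares its Teff libraries with the one above and is given for its own values. It also holds the 13 members that passed the filter only through Teff, so its count is no support in itself. All 10 plasmacytoid dendritic members were lower in eTreg, 6 of 7 class II members and 6 of 8 myeloid members. Siglech was at least 382-fold lower in eTreg, where it had no read, and H2-Ab1 was lower by a log2 difference of -5.15 ± 0.30 (edgeR adjusted p = 1.4e-09). Cd74 differed least of the class II members called, at -0.86 ± 0.22 (edgeR adjusted p = 0.01). Cd79b was the member higher in eTreg (2.04 ± 0.23, edgeR adjusted p = 2.7e-06), and Cd22 was not called (-0.69 ± 0.29, edgeR adjusted p = 0.13).

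Between the resting gates, cTreg against Tnaive, 1 member was higher and 1 lower, where 7.91% of all tested genes were higher and 4.29% lower. Cd79b stood at 10.8 and 12.2 CPM in cTreg and 1.73 and 2.70 in Tnaive (2.37 ± 0.26, edgeR adjusted p = 2.4e-06). Itgam stood at 1.69 and 2.18 CPM in cTreg, below the 6.62 and 7.19 of Tnaive (-1.83 ± 0.28, edgeR adjusted p = 9.2e-05). These were the only members called between the resting gates, and neither pair of libraries overlapped.

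WT Treg against Tconv, cells not split by CCR7 or CD62L, gave 2 members higher and 3 lower, with 12.1% and 6.68% of all tested genes called. Cd79b stood at 9.79 and 12.9 CPM in WT Treg and 0.884 and 0.803 in Tconv (3.73 ± 0.36, edgeR adjusted p = 4.5e-07). Cd74 stood at 38.9 and 56.8 CPM in WT Treg and 8.49 and 14.8 in Tconv (2.02 ± 0.27, edgeR adjusted p = 2.1e-05). The alpha and beta chain genes of I-A went the opposite way. H2-Aa was lower in WT Treg, 1.36 and 0.661 CPM against 3.72 and 3.21 (-1.72 ± 0.52, edgeR adjusted p = 0.027), and H2-Ab1 was lower by -1.38 ± 0.42 (edgeR adjusted p = 0.027).

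These 2 calls rest on 14 against 41 and 21 against 49 reads. That of H2-Aa was lost without Tconv 1, Tconv 2 or WT Treg 2, and that of H2-Ab1 without WT Treg 1, WT Treg 2 or Tconv 2. Without WT Treg 2 or Tconv 2 the count of members called was 3. Itgam was lower in WT Treg (-1.30 ± 0.29, edgeR adjusted p = 0.003). Cd22 was not called (0.76 ± 0.42, edgeR adjusted p = 0.25). No plasmacytoid dendritic member was called, and Siglech stood at 0.354 and 0.482 CPM in Tconv, which, like Teff and Tnaive, is hCD2-.

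**Figure D3:**
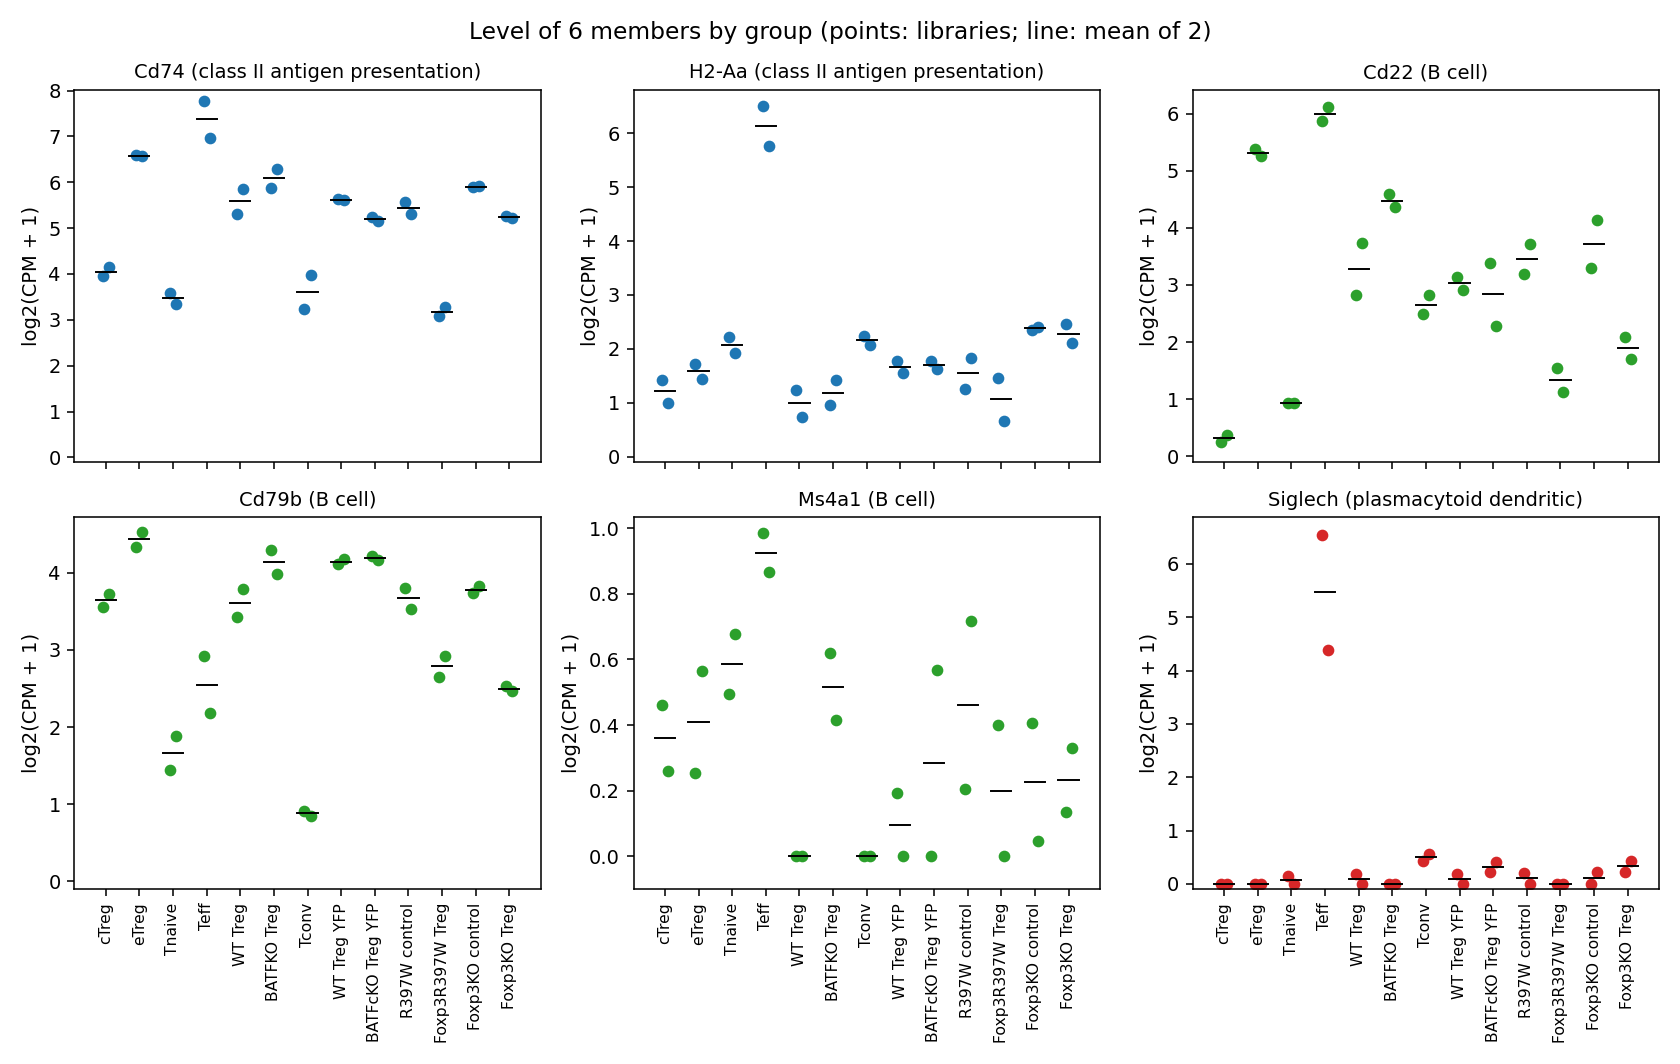
Level of 6 members in each of the 13 groups, as log2(CPM + 1), with 1 point per library and a line at the mean of 2, and a separate y scale in each panel. Cd74, Cd22 and Cd79b vary between Treg gates and mutants, H2-Aa and Siglech stand out in Teff, and Ms4a1 stays below 1 CPM in all 26 libraries.

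In BATFKO Treg against WT Treg 0 of 28 members were called by edgeR, where 2.69% of all tested genes were, and 0 by DESeq2. An unadjusted edgeR p under 0.05 was seen for 8 members and for 1460 of all 12227 tested genes. Of the members, Cd22 had the smallest p. It stood at 23.0 and 19.7 CPM in BATFKO Treg against 6.12 and 12.4 in WT Treg (1.23 ± 0.35, edgeR adjusted p = 0.079). Cd22 was called without WT Treg 2 (1.80, edgeR adjusted p = 0.042), and H2-DMa without BATFKO Treg 1 (0.83, edgeR adjusted p = 0.017). The groups did not overlap for Cd22. Cd74 stood at 57.7 and 77.5 CPM in BATFKO Treg against 38.9 and 56.8 (0.50 ± 0.23, edgeR adjusted p = 0.40).

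In BATFcKO Treg YFP against WT Treg YFP, where Batf was deleted by Cre driven from Foxp3, 0 of 28 members were called by edgeR and 0 by DESeq2, against 2.04% of all tested genes by edgeR. An unadjusted edgeR p under 0.05 was seen for 2 members and for 1305 of all 12227 tested genes. Cd22 stood at 9.48 and 3.86 CPM against 7.86 and 6.55 in WT Treg YFP (-0.13 ± 0.42, edgeR adjusted p = 0.96), and the groups overlapped. Cd74 stood at 37.1 and 34.4 CPM against 48.7 and 47.8 (-0.43 ± 0.24, edgeR adjusted p = 0.59). The difference between the germline and the conditional deletion was not tested.

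In Foxp3R397W Treg, 4 members were lower than in the control and 0 higher, where 3.94% of all tested genes were lower and 2.18% higher. Cd74 stood at 7.51 and 8.64 CPM against 46.7 and 38.6 (-2.40 ± 0.28, edgeR adjusted p = 3.8e-05). Cd22 stood at 1.92 and 1.17 CPM against 8.10 and 12.2 (-2.72 ± 0.51, edgeR adjusted p = 0.0026), and Cd79b at 5.27 and 6.59 CPM against 12.98 and 10.6 (-0.99 ± 0.25, edgeR adjusted p = 0.023). H2-Ab1 was lower by -2.33 ± 0.60 (edgeR adjusted p = 0.024) on 6 against 30 reads. None of the 4 genes had overlapping groups, which is no support beyond the calls.

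Leaving out 1 library changed that count to 2 without Foxp3R397W Treg 1 and to 1 without Foxp3R397W Treg 2. Without Foxp3R397W Treg 2, Cd74 was the member still called. The H2-Ab1 call was also lost without control 4, and that of Cd79b without control 3. The plasmacytoid dendritic and myeloid members were not called in either direction, and 7 of the 8 library values of Siglech and Clec10a in this set were 0.

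In Foxp3KO Treg, 2 members were lower than in the control, where 6.39% of all tested genes were. Cd79b stood at 4.79 and 4.51 CPM against 12.3 and 13.2 (-1.45 ± 0.20, edgeR adjusted p = 0.00011), and Cd22 at 3.25 and 2.27 CPM against 8.82 and 16.5 (-2.20 ± 0.33, edgeR adjusted p = 0.00023). Cd74 stood at 37.2 and 36.4 CPM against 58.1 and 59.6, groups that did not overlap, and did not pass the threshold (-0.68 ± 0.22, edgeR adjusted p = 0.062). Thus Cd22 and Cd79b were lower in both Foxp3 mutants, each set against its own control.

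The Foxp3KO set had its own background. Jchain, a plasma cell gene, stood at 35.6 to 42.9 CPM in its 4 libraries, control included, and at most at 2.08 elsewhere, and Cd8a stood at 6.04 to 8.34 CPM there and at most at 2.35 elsewhere. Their part in the results of this set was not tested. Ms4a1 and Pax5 stayed at or below 0.325 and 0.135 CPM in these 4 libraries.

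The red cell members were at 0. Hbb-bs and Hba-a1, the main adult globin genes, had no read in any of the 26 libraries, and neither did the other 8 globin rows of the table, out of 295654171 counts in all. Alas2, the heme synthesis enzyme of red cell precursors, which is not a member, had reads in every library at 0.365 to 2.14 CPM. The globin genes have near-identical copies, and how reads of such copies were handled before deposit is not stated in the labels, so a row at 0 is reported only as listed at 0.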

How the data were processed

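The authors deposited raw read counts per gene, 1 column per library. Alignment was to mm10 with STAR 2.6.1c, per the submitters' processing notes. The counting tool and its strand setting are not given in the sources used here, so genes that overlap on opposite strands, and close copies, are uncertain. Left out were 4 columns whose names fit no sample.

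The count analysis used edgeR 4.0.16 in R 4.3.3. The expression filter by group kept 12227 of 24411 genes. After TMM scaling, all 26 libraries entered 1 robust quasi-likelihood fit with a coefficient per group (13 residual degrees of freedom). Calls are at a Benjamini-Hochberg adjusted p below 0.05 over all tested genes. The SE is approximate, taken from the log2 change and its F statistic. Where a group had 0 reads, the fold is a bound against 3 counts over the group, and with 1 to 3 reads it is a count ratio with its 95% exact interval. Alternatives were DESeq2 1.42.0, relative-log-expression scaling, no filter, only the libraries compared, a replicate block, each library left out, and for class sums plain CPM. The fit was tested on simulated data.

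Gene lengths and spans came from GENCODE M21 (mm10). The members and the marker lists were chosen with earlier results of these data known. All members are named; of other lists, the defining markers and up to 4 called genes with the smallest p are named (1 marker is not reported here), and Alas2 was added after its values were seen.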

Additional observations from a re-analysis of the deposited data

Results flagged for a closer look

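Of the 28 tested members, 12 changed more from Tnaive to Teff than from cTreg to eTreg, by the contrast of both changes in 1 edgeR model with Benjamini-Hochberg adjustment over all tested genes. Among them, Pld4, Rnase6, Itgax, Fcer1g and Tyrobp had passed the filter only through Teff, so the count is no support in itself. The adjusted p was 2.6e-05 for H2-Ab1, 0.00024 for H2-Aa, 0.00065 for H2-Eb1 and 0.013 for Cd74 among class II members. It was 4.9e-05 for Ly6d, 0.0014 for Pld4, 0.0077 for Tcf4 and 0.049 for Rnase6 among plasmacytoid dendritic members, and 0.0015 for Mpeg1, 0.0015 for Tyrobp, 0.035 for Itgax and 0.041 for Fcer1g among myeloid members. In all 12 both Teff libraries lay above both eTreg libraries. Rnase6 and Itgax had a group with at most 3 reads, and the calls of Rnase6, Itgax and Fcer1g were lost on leaving out any of at least 6 single libraries.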

How the results depend on the processing

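Where a library was left out, its group held 1 library and the filter on low counts was run anew. The members tested can then differ from those of the main fit. No member result changed direction under any alternative run. Of 82 calls of single members, 39 held under all of them and 43 were lost under at least 1. Member counts with each library left out were 25 to 28 in Teff against Tnaive (27 with all libraries), 2 to 7 in eTreg against cTreg (7), 20 to 24 in eTreg against Teff (23), 2 to 2 in cTreg against Tnaive (2), 3 to 4 in WT Treg against Tconv (5), 0 to 1 for BATFKO Treg (0), 0 to 0 for BATFcKO Treg YFP (0), 1 to 3 for Foxp3R397W Treg (4), 2 to 2 for Foxp3KO Treg (2) and 6 to 14 for the contrast of both changes (12). The BATFKO count of 1 came without BATFKO Treg 1 or without WT Treg 2. When only the libraries compared were fitted, the member count was 12 in eTreg against Teff, 7 in cTreg against Tnaive, 2 in WT Treg against Tconv, 4 for Foxp3KO Treg and 6 for the contrast; the cause was not tested. Over all genes, that fit called 5790 in eTreg against cTreg (3800 in the fit of all 26), 2866 in cTreg against Tnaive (1492), 548 in WT Treg against Tconv (2292), 0 for BATFKO Treg (329), 1295 for Foxp3R397W Treg (749), 4155 for Foxp3KO Treg (1101) and 1183 for the contrast (663).

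Groups share library numbers, but no label says that the numbers pair libraries. Deviations of same-numbered libraries correlated at 0.495 to 0.571 in the germline set, 0.242 in the YFP set and 0.08 to 0.233 in the sorted set. With a replicate block the member count was 2 for BATFKO Treg (H2-DMa and Ly6d, both higher), 1 for BATFcKO Treg YFP (H2-DMa, higher) and 4 in cTreg against Tnaive. The block raised the count over all genes to 6486 from 4312 in Teff against Tnaive, 5973 from 3800 in eTreg against cTreg, 3609 from 1892 in eTreg against Teff, 2897 from 1492 in cTreg against Tnaive, 4168 from 2292 in WT Treg against Tconv, 1036 from 329 for BATFKO Treg, 1115 from 249 for BATFcKO Treg YFP and 1641 from 663 for the contrast. It could not be fitted for the Foxp3 mutants, whose controls carry other numbers. Depth limits the low members: in the shallowest library 3 counts are worth 0.531 CPM. The mean summed level in Teff over that in the other 24 libraries was 23.6 for plasmacytoid dendritic, 16.7 for myeloid, 5.25 for class II and 3.16 for B cell members, and 24.8, 17.6, 5.54 and 3.31 with plain CPM.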

Other observations

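Of all tested genes, 73 had at least 4-fold more CPM in both Teff libraries than in any of the other 24 libraries and a mean of at least 5 CPM in Teff, a set chosen after its values were seen. It held 15 members and 58 other genes. In 25 of the 73 the ratio of Teff 1 to Teff 2 was at least 2.5, as for the plasmacytoid dendritic members. The 15 non-members among these included Cacna1e, a calcium channel subunit (24.9 and 4.65 CPM, ratio 5.36), Cd180, a toll-like receptor relative of B cells and dendritic cells (13.4 and 2.83 CPM, ratio 4.73), Lifr, a cytokine receptor (17.8 and 4.93 CPM, ratio 3.61), Csf2rb2, a growth factor receptor chain (24.04 and 6.75 CPM, ratio 3.56), and Flt3 (15.1 and 5.93 CPM, ratio 2.54).

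In the other 48 genes, 43 of them non-members, the ratio was under 2.5. These included genes known from natural killer, innate-like and type 1 effector T cells: Zbtb16, which encodes the factor PLZF (107 and 67.5 CPM, ratio 1.58), the receptor gene Klrb1c (126 and 84.0 CPM, ratio 1.5), Klrk1 (67.8 and 47.0 CPM, ratio 1.44), Tbx21, which encodes T-bet (168 and 124 CPM, ratio 1.36), and the chemokine Xcl1 (32.0 and 26.3 CPM, ratio 1.22). The class II members H2-Aa, H2-Ab1, H2-Eb1 and Ciita, with ratios of 1.49 to 1.69, and Itgax, with 1.52, were also among the 48. So were the conventional dendritic genes Sirpa (23.9 and 10.8 CPM, ratio 2.22) and Wdfy4 (21.3 and 15.0 CPM, ratio 1.42). All these names were picked after their values were seen. The list of natural killer and CD8 genes summed to 392 and 289 CPM in Teff and at most to 85.1 elsewhere, and 7 of 9 tested were higher than in Tnaive and 2 lower. Its natural killer receptor Ncr1 stood at 0.879 and 1.10 CPM in Teff and at most at 0.296 elsewhere. Gzmk, a granzyme, was among the few higher in Teff 2, with 14.5 and 25.8 CPM.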
